A study of Mus musculus with 6 samples.

Results

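The genes described are Yap1, Wwtr1, Tead1, Tead2, Tead3, Tead4, Vgll2, Vgll3, Vgll4 and Lats2, the transcription factors, cofactors and one kinase through which the Hippo pathway acts on transcription. They were taken by name: NCBI gene numbers of the deposited table were matched to symbols, and values were summed over the transcripts of each gene. All 10 were found among 17558 genes, and all 10 passed the filter on low counts that left 12643 genes for testing.

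In the Hippo pathway the Mst kinases (Stk3 and Stk4) activate the Lats kinases, Lats1 and Lats2, which phosphorylate the coactivators Yap (Yap1) and Taz (Wwtr1) and keep them out of the nucleus. Neither coactivator binds DNA by itself. In the nucleus they bind the Tead proteins, DNA-binding factors that recognise the MCAT element found in the promoters of many muscle genes. Vgll proteins bind Teads through a surface that overlaps the Yap site, so that Vgll4 competes with Yap, while Vgll2 and Vgll3 are Tead cofactors studied in muscle. In myoblasts, active Yap is known to favour proliferation, and Tead4 and Vgll2 are known for roles in myogenic differentiation.

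RNA was sequenced from C2C12, an immortalized line of mouse myoblasts that leaves the cell cycle and fuses into myotubes when serum is reduced. All cells had 48 h in medium with 2% horse serum and insulin, transferrin and selenium, after growth in 10% fetal bovine serum. The control cells, labelled shScr, stably carried a scrambled short hairpin RNA and are given as wild type. Cells labelled ShPkm1 and ShPkm2 stably carried hairpins against one or the other splice isoform of the pyruvate kinase gene Pkm and are given as knockdowns. Each group had 2 libraries, 6 in all. No label says whether a group came from 1 stable line, from a pool or from separate cultures, so p-values measure the spread between these libraries, which may be technical.

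The libraries held 18216896 to 19796036 estimated counts. The CPM values below, counts relative to library size, are scaled to library totals and to a composition factor from edgeR (TMM), so that most genes centre on no change, and serve to compare a gene between groups. The TPM values, which the authors deposited, are also scaled to transcript length and serve to compare levels of different genes within a library. The shScr libraries stood further apart than the others, with a chi-square per degree of freedom of 30.8 against 5.94 for ShPkm1 and 6.66 for ShPkm2. The Pkm transcript with the upstream of the alternative coding exons (Pkm1) was at 980.1 and 957.9 CPM in shScr, 315 and 299.8 in ShPkm1 and 313 and 334 in ShPkm2. The transcript with the downstream exon (Pkm2) was at 1927 and 2468 CPM in shScr, 1656 and 1895 in ShPkm1 and 3330.3 and 3452 in ShPkm2. Pkm1 was thus lower in both hairpin groups (adjusted p = 0.00272 and 0.00124, edgeR on transcripts), whereas Pkm2 was not lower in the libraries labelled ShPkm2 (log2 fold change 0.63, adjusted p = 0.0656). Those libraries are named by their label throughout, and a direction given for ShPkm2 is that of the label.

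Promoter sequence was available for 8 of the 10 genes, with no entry for Tead1 and Tead4. RefSeq windows of 300 bases on GRCm38.p6, from 250 bases before to 50 after an annotated start, were searched on both strands for the MCAT core CATTCC (reverse complement GGAATG) and for the muscle E-box CAGCTG, which is its own reverse complement. Neither motif contains the other. An MCAT match stood in 6 of the 8 genes and in 8 of their 12 windows, against 14.7% of all 32851 windows and 16.6% of 27025 genes. The 2 Wwtr1 windows overlap and hold the same match, which is thus counted in both. The E-box stood in 0 of the 12 windows, against 16.3% of all windows. A match is a run of letters and not a shown binding site. The upstream 250 bases are printed below for a pair of genes that fell in both hairpin groups and have a match (Vgll3 and Vgll4) and for the Tead genes that moved in opposite directions in ShPkm1 (Tead3 with a match, Tead2 with none). Capitals mark the match, on the strand of the gene.
Vgll3 promoter, chr16:65814939-65815188, plus strand: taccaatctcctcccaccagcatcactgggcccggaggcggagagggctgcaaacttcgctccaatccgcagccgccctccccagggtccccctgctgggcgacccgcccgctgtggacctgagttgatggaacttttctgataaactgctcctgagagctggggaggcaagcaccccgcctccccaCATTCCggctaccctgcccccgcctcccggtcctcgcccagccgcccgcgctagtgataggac
Vgll4 promoter, chr6:114969204-114969453, minus strand: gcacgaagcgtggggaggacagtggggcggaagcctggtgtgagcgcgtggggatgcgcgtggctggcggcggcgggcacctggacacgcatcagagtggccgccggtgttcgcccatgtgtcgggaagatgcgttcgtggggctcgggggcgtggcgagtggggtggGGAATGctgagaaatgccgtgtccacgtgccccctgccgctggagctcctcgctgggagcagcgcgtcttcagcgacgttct
Tead3 promoter, chr17:28350806-28351055, minus strand: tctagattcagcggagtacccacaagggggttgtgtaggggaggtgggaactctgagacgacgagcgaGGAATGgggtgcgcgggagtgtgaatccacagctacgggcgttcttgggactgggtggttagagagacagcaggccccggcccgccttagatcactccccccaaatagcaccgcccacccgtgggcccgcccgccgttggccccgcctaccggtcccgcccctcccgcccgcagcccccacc
Tead2 promoter, chr7:45215542-45215791, plus strand: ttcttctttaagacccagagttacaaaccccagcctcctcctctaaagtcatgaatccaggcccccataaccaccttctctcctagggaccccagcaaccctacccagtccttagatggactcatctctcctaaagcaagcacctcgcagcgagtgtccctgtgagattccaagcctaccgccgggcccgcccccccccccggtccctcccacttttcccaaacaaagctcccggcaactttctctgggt
The Vgll3 match began 63 bases before the start and the Vgll4 match 82 bases before it. At the Tead3 start printed here, the most upstream of 3, the match began at base -182, and the second Tead3 start had a pair at -123 and -114 and one more at base 3 of the transcript. The coactivators and the kinase each had a match as well, shown in 30 bases of context to set them beside the genes above.
Yap1 site, match at chr9:8004732-8004737, minus strand: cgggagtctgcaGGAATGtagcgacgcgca
Wwtr1 site, match at chr3:57576041-57576046, minus strand: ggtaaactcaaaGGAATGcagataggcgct
Lats2 site, match at chr14:57746114-57746119, minus strand: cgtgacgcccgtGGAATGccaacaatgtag
The Yap1 and Wwtr1 matches began at -141 and -136, and the Lats2 match at base 5 of the transcript. The Vgll2 window, like that of Tead2, held none.

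**Figure D1:**
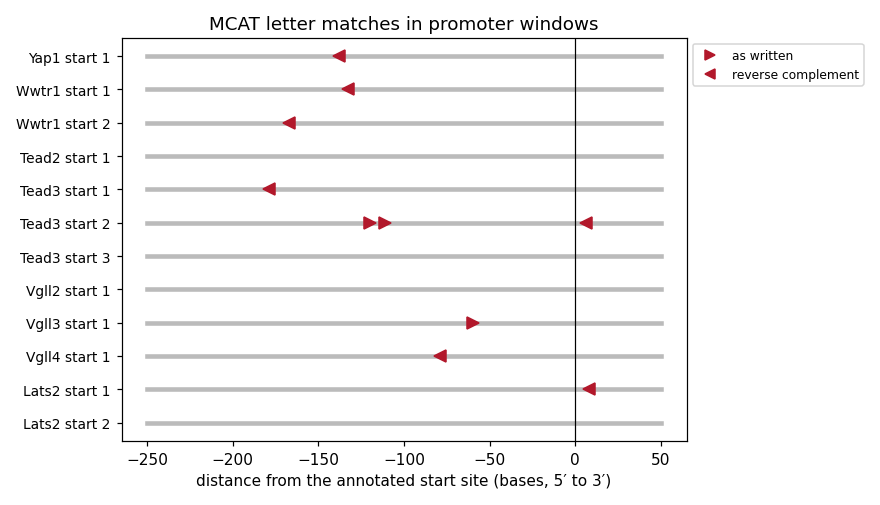
MCAT letter matches (triangles pointing right as written, left as reverse complement) in the 12 promoter windows of 8 genes, by distance in bases from each annotated start site. Tead2, Vgll2, the third Tead3 start and the second Lats2 start have no match.

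In the control cells Tead4 and Tead2 were the most abundant of the 10 transcripts. Tead4 was at 74.6 and 62.9 TPM and Tead2 at 61.9 and 74.1 TPM in the shScr libraries, so their ranges overlapped. Wwtr1 followed at 49.8 and 42.7 TPM and Vgll4 at 35.1 and 44.6 TPM, again overlapping. Yap1 and Vgll3 came next with means of 24.5 and 23.1 TPM, and Tead3, Tead1, Vgll2 and Lats2 lay between means of 18.6 and 12.4 TPM, where neighbours in the order overlapped. The other groups had another order. In ShPkm1 the highest mean was that of Wwtr1, at 57.3 ± 1.08 TPM (SD, n = 2), then Tead2 at 48.8 ± 1.26, with Tead3 and Vgll4 overlapping at means of 41.0 and 40.8. In ShPkm2 Tead2 led at 106.9 ± 1.78 TPM (SD, n = 2). Tead4, with Tead2 the most abundant in the controls, was the lowest at 3.83 ± 0.0424 TPM, just under Vgll2 at 4.91 ± 0.941 TPM without overlap.

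The question asked of each gene was whether its RNA differed between control cells and cells with either hairpin. With edgeR's quasi-likelihood test and Benjamini-Hochberg adjustment over 12643 genes, 6 of the 10 genes changed in ShPkm1 against shScr (1 higher, 5 lower), where 63.1% of all genes tested were called (31.8% higher, 31.4% lower). In ShPkm2 against shScr, 7 of the 10 changed (1 higher, 6 lower), with 68.0% of all genes called (33.9% higher, 34.2% lower). Between ShPkm2 and ShPkm1 it was 4 of 10 (1 higher, 3 lower), with 53.0% of all genes called (25.7% higher, 27.3% lower). The share of these genes called is therefore near that of the whole table in the first pair of comparisons. In the last it is below it, but with only the libraries of ShPkm1 and ShPkm2 in the fit 8 of the 10 genes were called (2 higher, 6 lower), against 7831 of 12441 genes. Their median log2 fold changes were -0.27, -0.46 and -0.24 in that order, where all genes tested had medians of 0.00, 0.01 and 0.00. Both comparisons with shScr use the same control libraries.

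Small changes depended on the scaling. Without the composition factor, library totals alone raised the median gene by 0.19 on the log2 scale in ShPkm1 and by 0.32 in ShPkm2 against shScr, and mean TPM raised it by 0.35 and 0.44. The share of called genes that were higher went from 50.3% to 65.8% in ShPkm1 and from 49.8% to 69.3% in ShPkm2 with library totals alone. Changes of Tead4 and Vgll2 in both hairpin groups, of Tead2 and Tead3 in ShPkm1 and of Vgll3 in ShPkm2 exceeded such shifts. Those of Yap1, Wwtr1, Tead1, Vgll4 and Lats2 did not in at least 1 comparison, nor did that of Tead2 in ShPkm2. Vgll3 in ShPkm1 went to -0.26 with library totals alone and -0.06 on TPM, and Tead3 in ShPkm2 to -0.14 and 0.0032, without a call. Of the 10 genes, library totals alone called 1 higher and 3 lower in ShPkm1 and 2 higher and 3 lower in ShPkm2 against shScr. Of all 12643 genes they called 7772 and 8797. Limma on log2(TPM + 1) called 4 of the 10 higher and 3 lower in ShPkm1 and 3 higher and 3 lower in ShPkm2. On that scale 7612 of 11836 genes were called in ShPkm1, 78.5% of them higher, and 8396 in ShPkm2, 76.3% of them higher. The split of these genes into higher and lower therefore rests on the scaling.

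**Figure D2:**
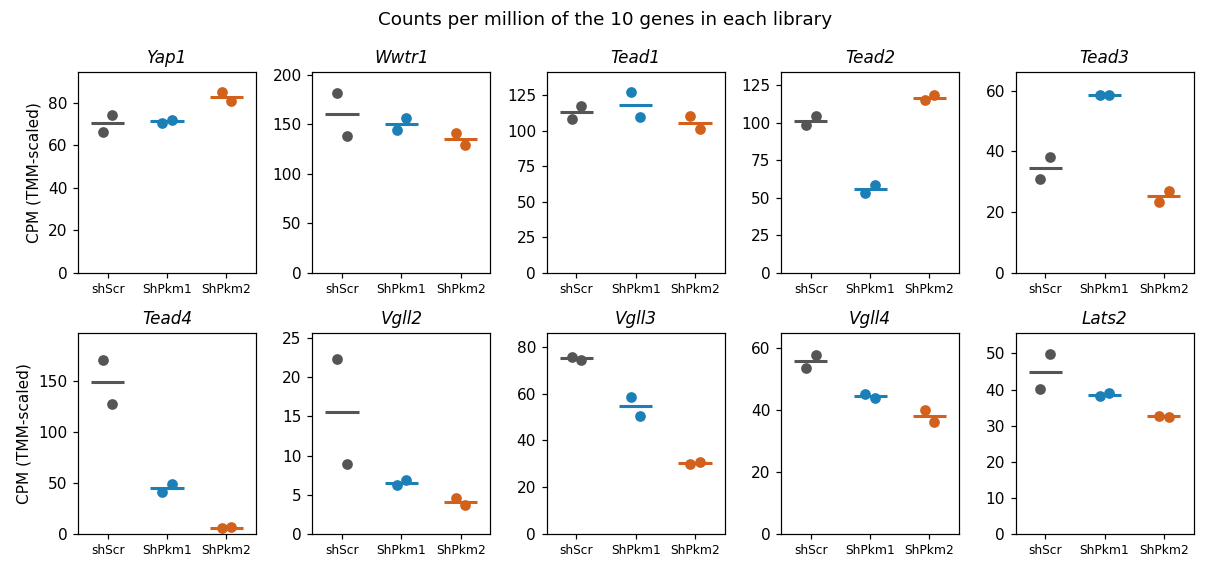
CPM with TMM scaling of the 10 genes in each of the 6 libraries (points) with the mean of each group (bar), each axis starting at 0. Tead4 falls from 170.3 and 127 CPM in shScr to 5.79 and 6.20 in ShPkm2, and Tead2 and Tead3 part in ShPkm1.

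**Figure D3:**
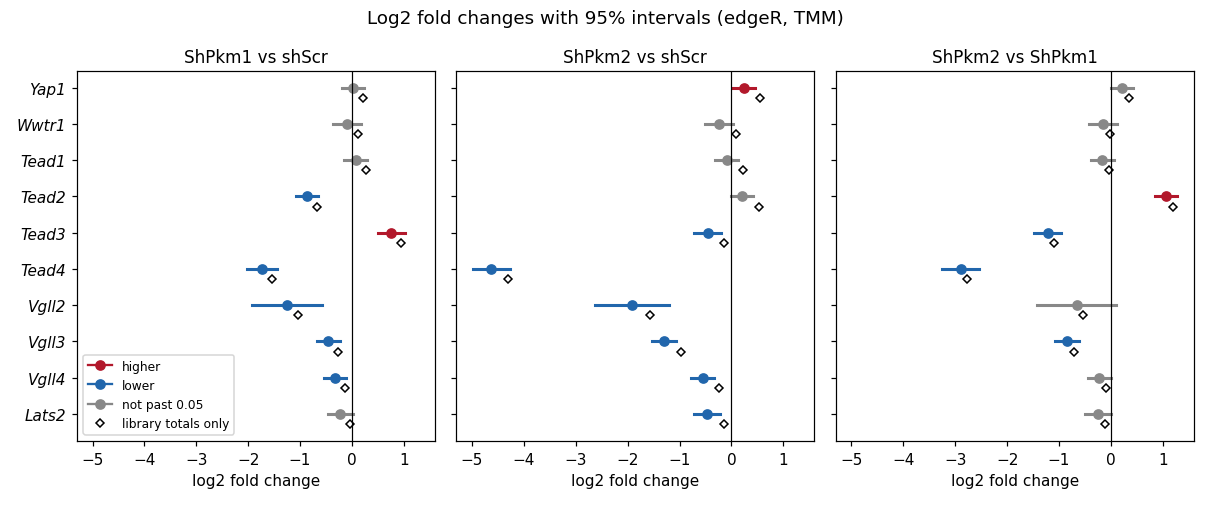
Log2 fold changes (points) with 95% intervals (lines) from edgeR for the 10 genes in the 3 comparisons, coloured by the call at an adjusted p of 0.05, with open diamonds for the same fit on library totals alone. Tead4 lies furthest from 0 in each comparison, and the diamonds of the smaller changes move to the right.

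Tead4 had the largest change of the 10 genes in every comparison. The gene lies on the minus strand of chromosome 6 (chr6:128227143-128300813, GRCm38.p6). It was at 170.3 and 127 CPM in the shScr libraries, 41.0 and 48.3 in ShPkm1 and 5.79 and 6.20 in ShPkm2. The groups did not overlap: both ShPkm1 libraries were far below both controls, and both ShPkm2 libraries far below those. The log2 fold change was -1.73 ± 0.14 (SE) in ShPkm1 against shScr, a 3.33-fold fall (adjusted p = 2.39e-07, edgeR). In ShPkm2 against shScr it was -4.63 ± 0.16 (SE), a 24.8-fold fall (adjusted p = 5.69e-11, edgeR). ShPkm2 was also 7.45-fold below ShPkm1 (adjusted p = 9.18e-09, edgeR). The fall in ShPkm2 was larger in size than 97.8% of all genes tested, and that in ShPkm1 than 90.3%. It passed the threshold in each of the 14 alternative fits of either comparison with shScr.

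Both deposited Tead4 transcripts fell alike. They differ by a coding exon of 129 bases (exon 5, chr6:128247960-128248088 on GRCm38), absent from the shorter form of 384 codons and present in the longer of 427. The shorter form made up 55.6% to 62.6% of Tead4 TPM over the 6 libraries. In the transcript fit, the shorter form had log2 fold changes of -1.75 in ShPkm1 and -4.53 in ShPkm2 against shScr, and the longer -1.63 and -4.70. All 4 were called (adjusted p = 0.0104, 0.00107, 0.0126 and 0.00107, edgeR), where 10.8% of 33433 transcripts were called in ShPkm1 and 17.2% in ShPkm2.

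Markers of muscle differentiation moved with Tead4. Myog, the muscle regulatory factor that drives terminal differentiation, was at 2336 and 1988 CPM in shScr, 1097 and 1162 in ShPkm1 and 49.2 and 56.9 in ShPkm2. Of 7 muscle markers (Myod1, Myog, Myf5, Des, Myh3, Mymk, Ckm), 6 fell in ShPkm1 and 6 in ShPkm2, where 31.4% and 34.2% of all genes were lower. Myf5, a factor of undifferentiated myoblasts, rose in ShPkm2 by 1.74 on the log2 scale (adjusted p = 9.39e-09, edgeR). The summed CPM of the 7 was 20438 and 16258 in shScr, 6923 and 7836 in ShPkm1 and 1425 and 1377 in ShPkm2. Their part in the changes of the Tead and Vgll genes was not tested, and in bulk RNA fewer differentiated cells and less RNA per cell cannot be told apart. Of 6 markers of reserve or satellite cells (Pax7, Cd34, Sdc4, Cxcr4, Hey1, Heyl), 3 rose and 1 fell in ShPkm1, and 3 rose and 3 fell in ShPkm2, where 31.8% and 33.9% of all genes were higher and 31.4% and 34.2% lower. Their summed CPM was 122 and 128 in shScr, 298 and 270.1 in ShPkm1 and 141 and 142 in ShPkm2. The higher sum in ShPkm1 came from Cd34, a surface sialomucin, at 8.18 and 7.46 CPM in shScr and 165 and 147 in ShPkm1. Without Cd34 the other 5 markers summed to 114 and 120.1 CPM in shScr, 133 and 123 in ShPkm1 and 122 and 122 in ShPkm2. These sums hold genes that went opposite ways: Sdc4, a syndecan and the largest term, had log2 fold changes of -0.64 in ShPkm1 and 0.23 in ShPkm2, Heyl, a Notch target, 1.54 and -1.54, and Pax7, the satellite cell factor, -3.08 and Hey1 -1.03 in ShPkm2. Adipocyte markers (Adipoq, Plin1, Fabp4) had at most 7 counts in any library. The osteoblast markers Ibsp at 0, Sp7, Bglap and Alpl had at most 20.

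Tead2 and Tead3 moved in opposite directions in ShPkm1. Tead2 (chr7:45215792-45233468, GRCm38.p6), a family member known from embryonic tissues, was at 98.6 and 104 CPM in shScr, 53.3 and 58.2 in ShPkm1 and 115 and 119 in ShPkm2. The ShPkm1 libraries were the low ones, and no group overlapped another. Tead2 fell in ShPkm1 by 0.86 on the log2 scale, a 1.82-fold change (adjusted p = 6.54e-06, edgeR). It did not pass the threshold in ShPkm2 against shScr (log2 fold change 0.20, 95% interval -0.0044 to 0.41, adjusted p = 0.0763), but did so with library totals alone (0.53, adjusted p = 0.000509) and on TPM (0.65, adjusted p = 0.000145, limma), and on the TMM scale without shScr replicate 2 (0.25, adjusted p = 0.0374, edgeR). Between the hairpin groups Tead2 was 2.09-fold higher in ShPkm2 (adjusted p = 9.99e-07, edgeR).

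Tead3 (chr17:28331671-28350805) was at 30.9 and 38.0 CPM in shScr, 58.4 and 58.4 in ShPkm1 and 23.3 and 27.0 in ShPkm2. Here the ShPkm1 libraries were the high ones. The rise in ShPkm1 was 1.69-fold (log2 fold change 0.76 ± 0.12 SE, adjusted p = 0.000106, edgeR). Against ShPkm1, ShPkm2 was 2.33-fold lower (adjusted p = 2.01e-06, edgeR). Tead3 was also called lower in ShPkm2 against shScr (log2 fold change -0.46, adjusted p = 0.00472, edgeR), but that call was lost with library totals alone (-0.14, adjusted p = 0.382) and without ShPkm2 replicate 1 (-0.35, adjusted p = 0.0755), and the value was 0.0032 on TPM. The rise in ShPkm1 and the difference between the hairpin groups held in all 14 alternatives.

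For both genes a single transcript carried nearly all of the TPM, at 93.0% to 99.0% for Tead2 and 96.6% to 100% for Tead3. That Tead2 transcript fell in ShPkm1 (log2 fold change -0.83, adjusted p = 0.0128) and that Tead3 transcript rose (0.79, adjusted p = 0.0366, edgeR). Both differed between the hairpin groups, by 1.09 for Tead2 and -1.20 for Tead3 (adjusted p = 0.00726 and 0.0159), where 7.91% of transcripts were called.

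Tead1 was the family member with no call. Its levels were 108 and 117 CPM in shScr, 127 and 109 in ShPkm1 and 110.1 and 101 in ShPkm2, and the groups overlapped. The 95% interval of the log2 fold change was -0.16 to 0.30 in ShPkm1 and -0.32 to 0.13 in ShPkm2 against shScr, which leaves room for changes of up to these sizes. On TPM, which moves with the composition of the library, Tead1 was 0.49 higher in ShPkm1 and called (adjusted p = 0.0079, limma), and in ShPkm2 the sign turned to 0.36 higher, also called (adjusted p = 0.0337, limma).

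As a result the make-up of the Tead family differed between groups. Shares within the family do not depend on the scaling of a library. Tead4 took 44.6% and 35.7% of the summed Tead TPM in the shScr libraries, 18.2% and 20.6% in ShPkm1 and 2.49% and 2.60% in ShPkm2. Tead2 took 37.0% and 42.0% in shScr, 33.8% and 35.7% in ShPkm1 and 71.0% and 71.0% in ShPkm2, so the ShPkm2 libraries stood apart for this gene. Tead3 took 10.8% ± 2.08 of it in shScr (SD, n = 2), 29.2% ± 0.780 in ShPkm1 and 12.2% ± 1.02 in ShPkm2. Tead1 took 9.55% ± 0.675, 16.7% ± 2.22 and 14.2% ± 1.13, higher in each hairpin library than in each control. The shares rest on transcript length: from counts without length scaling, Tead1 took 28.4% in shScr and 41.7% in ShPkm2, Tead2 took 25.6% and 46.1%, and Tead4 took 37.3% and 2.36%. On that scale Tead2 and Tead1 were thus close to each other in ShPkm2. In ShPkm1 Tead1 led on counts with 42.7%, above Tead3 at 21.1%, Tead2 at 20.1% and Tead4 at 16.1%, while its TPM share there was 16.7%. The sum of the 4 Tead genes was 172 ± 6.30 TPM (SD, n = 2) with shScr, 140.4 ± 1.63 with ShPkm1 and 151 ± 2.58 with ShPkm2. These means became 207, 132 and 133 when TPM was divided by a composition factor per library.

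**Figure D4:**
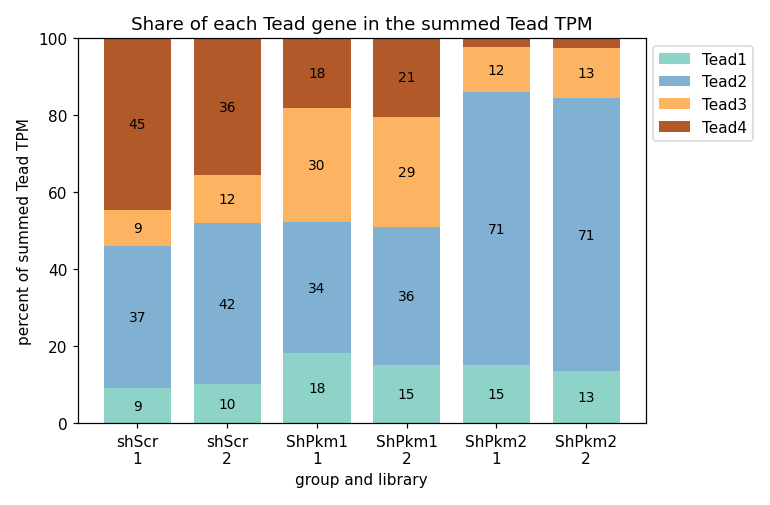
Percent of the summed Tead TPM taken by Tead1, Tead2, Tead3 and Tead4 in each of the 6 libraries, stacked to 100. Tead4 shrinks from 36% and 45% in shScr to under 3% in ShPkm2, Tead3 widens in ShPkm1 and Tead2 fills 71.0% of ShPkm2.

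The 3 Vgll genes tested, whose products bind the Teads in place of Yap, were each called lower in both hairpin groups with TMM scaling. Of all genes tested, 31.4% were lower in ShPkm1 and 34.2% in ShPkm2. On TPM Vgll4 turned to 0.04 in ShPkm1 and lost its call in ShPkm2 (-0.11, adjusted p = 0.466, limma). Vgll3 (chr16:65815189-65866368) was at 75.7 and 74.2 CPM in shScr, 58.7 and 50.5 in ShPkm1 and 29.8 and 30.9 in ShPkm2. The groups stood in that order without overlap. Vgll3 fell 2.47-fold in ShPkm2 (log2 fold change -1.30 ± 0.11 SE, adjusted p = 1.65e-07, edgeR) and was 1.80-fold lower there than in ShPkm1 (adjusted p = 1.75e-05, edgeR). Its fall in ShPkm1 was smaller, -0.46 on the log2 scale (adjusted p = 0.00165, edgeR), and was lost with library totals alone (-0.26, adjusted p = 0.0564) and on TPM (-0.06, adjusted p = 0.719, limma). The 3 main Vgll3 transcripts were each lower in ShPkm2, by -1.55, -1.13 and -0.92 on the log2 scale (adjusted p = 0.0034, 0.0263 and 0.0379, edgeR). Of 33433 transcripts tested, 17.2% were called in that comparison.

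Vgll2 (chr10:52022502-52028471), a cofactor enriched in skeletal muscle, was the scarcest of the 3 Vgll genes tested in counts, and its control libraries disagreed. It had 353 and 157 estimated counts in shScr, 116 and 136 in ShPkm1 and 97 and 77 in ShPkm2. In CPM this was 22.4 and 8.87, then 6.18 and 6.88, then 4.57 and 3.67, so the groups did not overlap although the first control library was far above the second. Vgll2 fell 2.37-fold in ShPkm1 (log2 fold change -1.25, 95% interval -1.93 to -0.57, adjusted p = 0.00368, edgeR) and 3.76-fold in ShPkm2 (-1.91, interval -2.62 to -1.20, adjusted p = 0.000175, edgeR). The size depended on the control library: without shScr replicate 1 the values were -0.44 and -1.10 (adjusted p = 0.045 and 3.27e-06), and without shScr replicate 2 they were -1.77 and -2.44. Without ShPkm1 replicate 1 the value in ShPkm1 was about as large and just missed the threshold (-1.16, adjusted p = 0.0529, edgeR), and on TPM with no filter on low values it was -0.66 without a call (adjusted p = 0.177, limma). The hairpin groups did not differ past the threshold (log2 fold change -0.66, interval -1.41 to 0.09, adjusted p = 0.126, edgeR), but the same value was called with only their libraries in the fit (adjusted p = 0.000921, edgeR).

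Vgll4, the family member best known for competing with Yap, was at 53.8 and 58.0 CPM in shScr, 45.3 and 43.8 in ShPkm1 and 40.0 and 36.1 in ShPkm2. The groups did not overlap. It fell by 0.33 on the log2 scale in ShPkm1 (adjusted p = 0.0131, edgeR) and by 0.56 in ShPkm2 (adjusted p = 0.000305, edgeR). Against ShPkm1, Vgll4 in ShPkm2 was not called (-0.23, adjusted p = 0.0757, edgeR). Among the alternatives it was called lower only with just the libraries of both groups in the fit (-0.23, adjusted p = 0.0295, edgeR). Both calls against shScr were lost with library totals alone (-0.13 and -0.23, adjusted p = 0.328 and 0.0863), and in ShPkm1 the values without either ShPkm1 library were about as large but, with fewer libraries, not called (-0.34 and -0.30, adjusted p = 0.0635 and 0.0862, edgeR). In TPM the 3 Vgll genes summed to 76.2 ± 0.403 (SD, n = 2) for shScr, 70.4 ± 4.03 for ShPkm1 and 53.5 ± 5.03 in ShPkm2. With the composition factor the sums were 91.8, 66.0 and 47.3. Vgll1 had at most 1 count in any library and was not tested.

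The coactivators had small changes on the TMM scale and larger ones on TPM. Yap1 was at 66.4 and 74.6 CPM in shScr, 70.5 and 72.2 in ShPkm1 and 85.2 and 80.9 in ShPkm2. The ShPkm1 libraries lay within the control range and the ShPkm2 libraries above it. Yap1 was called 1.18-fold higher in ShPkm2 (log2 fold change 0.24, 95% interval 0.02 to 0.45, adjusted p = 0.0477, edgeR), a call lost in 8 of 14 alternatives, among them DESeq2 (0.23, adjusted p = 0.0921) and the fit without shScr replicate 1 (0.15, adjusted p = 0.197). Yap1 in ShPkm2 was called at larger values with library totals alone (0.56, adjusted p = 0.000543, edgeR) and on TPM (0.67, adjusted p = 0.000329, limma). In ShPkm1 the log2 fold change was 0.02 (interval -0.20 to 0.23, adjusted p = 0.891), turning to -0.06 without shScr replicate 1 and to 0.40 on TPM, where it was called (adjusted p = 0.0154, limma). Between the hairpin groups Yap1 was not called (0.22, adjusted p = 0.0769, edgeR). It was called higher in ShPkm2 with only their libraries in the fit (0.22, adjusted p = 0.0247, edgeR). Library totals alone called it too (0.35, adjusted p = 0.0167, edgeR), and no other alternative did. The main Yap1 transcripts differ by a coding exon of 48 bases (exon 6, chr9:7950492-7950539 on GRCm38). The form with the exon took 41.95% to 70.3% of Yap1 TPM over the libraries, and neither form was called in any comparison.

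Wwtr1, which encodes Taz, was at 182 and 138 CPM in shScr, 144 and 156 in ShPkm1 and 141 and 129 in ShPkm2. Both hairpin groups overlapped the wide control range. Its log2 fold changes were -0.09 in ShPkm1 (interval -0.36 to 0.18, adjusted p = 0.547) and -0.24 in ShPkm2 (interval -0.51 to 0.03, adjusted p = 0.0989, edgeR). The sign turned to 0.11 and 0.09 with library totals alone, and on TPM to 0.31 in ShPkm1, where Wwtr1 was called higher (adjusted p = 0.0382, limma), and to 0.22 in ShPkm2 without a call. Without shScr replicate 2 both falls were called (-0.27 and -0.43, adjusted p = 0.0212 and 0.000355). In TPM the sum of Yap1 and Wwtr1 was 70.7 ± 1.03 (SD, n = 2) for shScr, 89.6 ± 0.870 for ShPkm1 and 93.2 ± 7.28 in ShPkm2. With the composition factor it was 85.3, 84.2 and 82.4, so the summed level of the coactivators differed between groups on one scale and not on the other.

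Lats2, the kinase that phosphorylates both coactivators and is itself a Yap target, was at 40.2 and 49.7 CPM in shScr, 38.2 and 39.0 in ShPkm1 and 32.7 and 32.5 in ShPkm2. The groups did not overlap, but the ShPkm1 libraries lay close under the lower control. It fell by 0.47 on the log2 scale in ShPkm2 (adjusted p = 0.00263, edgeR), a call lost with library totals alone (-0.15, adjusted p = 0.329) and on TPM (-0.03). In ShPkm1 the value was -0.22 (interval -0.47 to 0.02, adjusted p = 0.105, edgeR), and it was 0.16 on TPM. It rested on the control library: without shScr replicate 1 Lats2 was called lower in ShPkm1 (-0.37, adjusted p = 0.00458, edgeR), and without shScr replicate 2 the value was -0.06. Against ShPkm1, Lats2 in ShPkm2 was not called (-0.24, adjusted p = 0.0876, edgeR). Among the alternatives it was called lower only with just the libraries of both groups in the fit (-0.25, adjusted p = 0.0226, edgeR). Its partner Lats1 rose in both groups. Lats1 was at 23.1 and 24.9 CPM in shScr, 44.9 and 37.8 in ShPkm1 and 62.7 and 53.4 in ShPkm2, with log2 fold changes of 0.79 and 1.28 (adjusted p = 0.000111 and 8.87e-07, edgeR).

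The core kinases and their scaffolds, 13 genes without Lats2, were called in both directions. In ShPkm1 against shScr 3 rose, 3 fell and 7 had no call, with a median log2 fold change of 0.03, where 31.8% of all genes tested were higher and 31.4% lower. In ShPkm2 6 rose, 3 fell and 4 had no call, with a median of 0.20, where the shares of all genes were 33.9% and 34.2%. Beside Lats1, the genes that rose in both groups were Mob1a, the Lats coactivator, with log2 fold changes of 0.88 and 1.01, and Stk3, an Mst kinase, with 0.86 and 0.94. The other Mst kinase, Stk4, fell by 0.64 in ShPkm1 and by 0.38 in ShPkm2 (adjusted p = 0.000195 and 0.00638, edgeR). Nf2, which encodes the scaffold merlin, fell by 0.40 and 0.45 (adjusted p = 0.00299 and 0.00126, edgeR). With library totals alone neither was called in ShPkm2 (Stk4 -0.05 and Nf2 -0.12), nor was Nf2 in ShPkm1 (-0.21, adjusted p = 0.109, edgeR). On TPM the ShPkm2 values of Stk4 and Nf2 turned to 0.08 and 0.05, and neither was called in ShPkm1 (Stk4 -0.24 and Nf2 -0.0013). Mob1b, the Mob1a paralogue, fell by 0.60 in ShPkm2 (adjusted p = 0.00979, edgeR) and was at -0.28 in ShPkm1 without a call. The ShPkm2 call was lost with library totals alone (-0.27), on TPM (-0.11) and without ShPkm2 replicate 2 (-0.55, adjusted p = 0.0683, edgeR). Between the hairpin groups 3 genes were higher in ShPkm2 and 0 lower (10 had no call), where 25.7% and 27.3% of all genes were: Sav1, an Mst scaffold, by 0.50, Lats1 by 0.49, and Wwc1, the scaffold Kibra, by 3.12. The Lats1 call was lost without ShPkm1 replicate 2 (0.37) and without ShPkm2 replicate 1 (0.36). Wwc1, named after its values were seen, had 28 and 21 counts in shScr, 8 and 10 in ShPkm1 and 97 and 76 in ShPkm2.

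Among genes of the cell junctions and other Yap partners, 10 of 11 were tested, the remaining one being Vgll1. In ShPkm1 3 rose and 2 fell, shares at or under the 31.8% and 31.4% of all genes, with a median log2 fold change of 0.05. Fat4, an atypical cadherin upstream of the pathway, was at 8.05 and 10.7 CPM in shScr, 35.0 and 36.0 in ShPkm1 and 32.3 and 26.0 in ShPkm2. It rose by 1.92 and 1.63 on the log2 scale (adjusted p = 2.50e-07 and 6.28e-07, edgeR). Ptpn14, a phosphatase that binds Yap, rose by 1.06 and 0.93, and Frmd6, a merlin relative, by 1.13 and 0.82. In ShPkm2 against shScr 4 rose and 5 fell, where 33.9% and 34.2% of all genes did. The median was 0.15, but -0.32 when genes averaging under 50 counts were left out and -0.14 without shScr replicate 1. Amot, an angiomotin that binds Yap, had the largest difference between the hairpin groups in this list, at 46.8 and 41.9 CPM in shScr, 43.8 and 44.3 in ShPkm1 and 106 and 103 in ShPkm2 (log2 fold change between hairpin groups 1.24, adjusted p = 2.15e-07, edgeR). Its relative Amotl2 went the other way, lower in ShPkm2 than in ShPkm1 by -0.83 (adjusted p = 2.04e-05, edgeR). Of 3 LIM proteins that bind Lats, Wtip was lower by -0.48 and -1.06 and Limd1 by -0.42 and -0.59 in ShPkm1 and ShPkm2 against shScr. Both ShPkm1 calls were lost with library totals alone (Wtip -0.29, adjusted p = 0.0594, and Limd1 -0.22, adjusted p = 0.0937, edgeR), and on TPM (-0.09 and -0.04), where Limd1 also lost its call in ShPkm2 (-0.10). Ajuba, the third, was at 0.01 in ShPkm1 (adjusted p = 0.958) and -0.32 in ShPkm2 (adjusted p = 0.034, edgeR). Between the hairpin groups 1 was higher and 4 lower, where 25.7% and 27.3% of all genes were, with a median of -0.25. Ajuba was at -0.33 there, a call lost in 9 of 14 alternatives.

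Targets of Yap and Tead showed no single direction across the hairpin groups. The list holds 21 genes of a signature derived by others in human tumours, Lats2 left out and Amotl2 and Ptpn14 also counted above. In ShPkm1 against shScr 13 rose, 4 fell and 4 had no call, with a median log2 fold change of 0.86, where 31.8% of all genes were higher and 31.4% lower. In ShPkm2 against shScr 9 rose, 7 fell and 5 had no call, near the 33.9% and 34.2% of all genes. The median was -0.08 and turned to 0.25 with library totals alone and 0.38 on TPM. Between the hairpin groups 4 were higher and 12 lower in ShPkm2, against 25.7% and 27.3% of all genes, with a median of -0.67. All genes tested had medians near 0 in these comparisons, as given above.

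Of the usual readouts, Ccn1 (Cyr61), a matricellular protein gene, was at 153 and 163 CPM in shScr, 356 and 372 in ShPkm1 and 149.6 and 150.2 in ShPkm2. Only the ShPkm1 libraries stood apart, with a log2 fold change of 1.20 in ShPkm1 (adjusted p = 3.07e-07, edgeR) and -1.28 between the hairpin groups. In ShPkm2 against shScr the value was -0.08 and turned to 0.25 with library totals alone (adjusted p = 0.0475, edgeR) and to 0.38 on TPM (adjusted p = 0.00732, limma), both called. Ccn2 (Ctgf), its relative, was at 104 and 109 CPM in shScr, 86.0 and 92.9 in ShPkm1 and 97.7 and 98.9 in ShPkm2. It was called lower in ShPkm1 by -0.25 (adjusted p = 0.0324, edgeR), a call absent in 9 of 14 alternatives. Among these it was -0.06 with library totals alone (adjusted p = 0.63), was lost without ShPkm1 replicate 1 (-0.19), ShPkm1 replicate 2 (-0.31) or shScr replicate 2 (-0.22), and turned to 0.13 on TPM. In ShPkm2 against shScr Ccn2 was at -0.12 without a call (adjusted p = 0.283, edgeR). It turned to 0.21 with library totals alone, also without a call (adjusted p = 0.0887, edgeR), and was called higher on TPM (0.33, adjusted p = 0.0176, limma). Ankrd1, a muscle ankyrin repeat protein, was at 506 and 443 CPM in shScr, 337 and 341 in ShPkm1 and 218 and 197 in ShPkm2. It fell by 0.49 and by 1.19 on the log2 scale (adjusted p = 0.00161 and 5.68e-07, edgeR). On TPM the ShPkm1 value was -0.09 and not called (adjusted p = 0.473, limma), while the fall in ShPkm2 was called (-0.73).

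Igfbp3, which binds insulin-like growth factors, was at 10.1 and 19.6 CPM in shScr, 91.0 and 89.1 in ShPkm1 and 7.25 and 5.58 in ShPkm2. It rose by 2.59 in ShPkm1 and fell by 1.22 in ShPkm2 (adjusted p = 2.88e-07 and 0.000507, edgeR), the fall losing its call on TPM with no filter on low values (-0.61, adjusted p = 0.182, limma). Without shScr replicate 2 the fall of Igfbp3 was -0.66. Nt5e, the ectonucleotidase CD73, had 42 and 16 counts in shScr and 211 and 241 in ShPkm1, where it rose by 2.74. The value was 3.69 without shScr replicate 1 and 2.14 without shScr replicate 2. Ccdc80, an extracellular matrix gene, was lower in ShPkm2 than in ShPkm1 by -2.46. F3, the coagulation tissue factor, rose in both, from 7.23 and 7.06 CPM in shScr to 33.3 and 31.0 in ShPkm1 and 62.1 and 60.2 in ShPkm2 (log2 fold changes 2.17 and 3.10, adjusted p = 9.71e-09 and 1.01e-10, edgeR). Dock5, an exchange factor for Rac, and Crim1 rose in ShPkm2 by 1.75 and 1.56, and the value of Crim1, with 36 and 90 counts in shScr, was 1.11 without shScr replicate 1 and 2.27 without shScr replicate 2. Axl, a receptor tyrosine kinase, was 0.52 higher in ShPkm2 than in ShPkm1. Gadd45a, a growth arrest gene, fell in both by 1.23 and 2.45 (adjusted p = 1.60e-06 and 1.93e-09, edgeR).

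**Figure D5:**
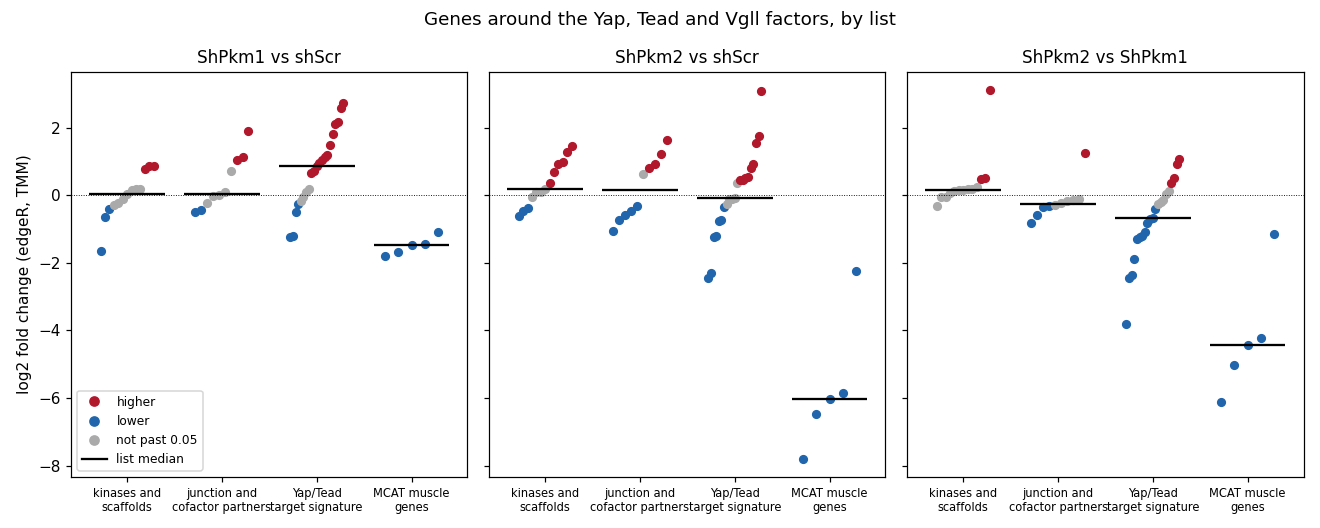
Log2 fold changes from edgeR of the tested genes of 4 lists (points, coloured by the call at an adjusted p of 0.05; black bar, list median) in the 3 comparisons. The target signature has a median of 0.86 in ShPkm1 and -0.08 in ShPkm2 against shScr, and the 5 muscle genes with MCAT elements lie below 0 in each panel.

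Muscle genes whose promoters are known for MCAT elements, 5 in all, were each called lower in each of the 3 comparisons, where 31.4%, 34.2% and 27.3% of all genes were. Their median log2 fold change was -1.46 in ShPkm1 and -6.02 in ShPkm2 against shScr, and -4.43 between the hairpin groups. Tnnt2, cardiac troponin T, which C2C12 cells express on differentiation, was at 3864 and 2764 CPM in shScr, 884 and 1034 in ShPkm1 and 52.1 and 49.7 in ShPkm2. Acta1, skeletal alpha-actin, was at 16849 and 10369 CPM in shScr, 3956 and 4637 in ShPkm1 and 60.6 and 61.9 in ShPkm2. The groups were far apart for both, with log2 fold changes of -1.79 and -6.02 for Tnnt2 and of -1.66 and -7.80 for Acta1 (adjusted p = 7.22e-07, 2.51e-11, 1.15e-05 and 4.02e-11, edgeR). The myosin genes Myh7 and Myh6 and the smooth muscle actin gene Acta2 were lower too, the last by -1.09 and -2.24 (adjusted p = 0.00021 and 3.1e-07, edgeR). These genes are also products of differentiated muscle, and they moved with the muscle markers given beside Tead4.

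For each of the 10 genes the closest patterns over the 6 libraries were sought among 10715 others averaging 50 counts or more, by the root mean square distance of log2 CPM centred on each gene's mean. With 6 libraries in 3 groups many genes share such patterns. The nearest to Tead4 were Cacnb1 at a distance of 0.0801 and Ryr1 at 0.138. Tead3 was nearest to Tg (0.0491) and Crip1 (0.0608), Tead2 to Cmbl (0.0614) and Coq7 (0.0614). Vgll3 was nearest to Ndufaf3 (0.0554) and Fam8a1 (0.0567), and Vgll4 to Vcl (0.0226) and Psd3 (0.0447). Vgll2 had no gene as near, with Mfsd4a at 0.170 and Gcdh at 0.203. The distance is not scaled to a gene's own variation, which was 0.904 for Vgll2 and 0.113 for Tead1 (SD, log2). By Pearson correlation Vgll2 matched these 2 genes at 0.980 and 0.972, and Tead1 its nearest 2, given below, at 0.925 and 0.893. Yap1 was nearest to Usp8 (0.0225) and Taok2 (0.0235), Wwtr1 to Sipa1l1 (0.0405) and Mrps18b (0.0441), Tead1 to Mlxip (0.0401) and Tmem181a (0.0466), and Lats2 to Mlec (0.0278) and Sidt2 (0.0358).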

How the data were processed

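RNA-seq was analysed in 6 libraries of differentiating C2C12 cells. The deposited table has 57920 RefSeq transcripts with NCBI gene numbers. Per the file headers it gives estimated counts, FPKM and TPM for each library, as made by the authors. The submitters' processing notes name HISAT, StringTie, Bowtie, RSEM and DESeq2, with no role, and the build mm10. Strand, annotation release and filters are not given in the sources used here, so reads of overlapping or antisense genes may be shared. The deposited FPKM values were not used, nor were 9 columns of group means. The deposited estimated counts (48.2% to 51.0% whole) were summed per gene and rounded, and the deposited TPM values were summed. Symbols matched 17445 of 17558 genes. Library totals set the counting precision, and floors and intervals for low counts cover counting error only.

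Genes were tested with edgeR 4.0.16 in R 4.3.3: filterByExpr (minimum count 10, total 15), TMM, 1 coefficient per group over all 6 libraries, quasi-likelihood F-test, two-sided, Benjamini-Hochberg adjustment over 12643 genes, threshold 0.05. Transcripts were fitted the same way (33433). With 2 libraries a group, the smallest exact permutation p is 0.333. Intervals are at 95%. The code was tested on simulated data. The 10 genes and all lists were chosen with earlier results of these data known. Named from each list were, per comparison, up to 3 risen and 3 fallen genes with the largest called change, a mean of at least 50 counts and groups that do not overlap, and always Ccn1, Ccn2, Ankrd1 and Lats1. Alternatives were DESeq2 1.42.0 and its size factors, library totals, other filters, only the groups compared, a replicate block, limma 3.58.1 on log2(TPM + 1 or 0.1), and leaving out each library. The composition factor on summed TPM was added after seeing the data. Figures were drawn with matplotlib 3.10.9.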

Additional observations from a re-analysis of the deposited data

How the results depend on the processing

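Of the tests of the 10 genes under alternative settings, 350 kept their direction and side of the threshold, 27 lost the call, 19 gained one and 24 turned. Counts of genes called stayed within 1.5 times of the reported ones in every alternative. The number of the 10 genes called between ShPkm2 and ShPkm1 was 8 when only those groups were fitted, against 4. Against shScr, the number of the 10 genes called moved when a library was left out, as did the number called among all genes. Such fits keep 1 library in that group, so their counts are not set out. Log2 fold changes that turned with library totals alone were Wwtr1 0.11 in ShPkm1, and in ShPkm2 Wwtr1 0.088, Tead1 0.23, Ccn1 0.25 and Ccn2 0.21. With limma on log2(TPM + 1), filtered or not, those that turned in ShPkm1 were Wwtr1 0.31 (called when filtered), Vgll4 0.041, Lats2 0.16 and Ccn2 0.13, and in ShPkm2 Wwtr1 0.22, Tead1 0.36, Tead3 0.0032, Ccn1 0.38, Ccn2 0.33, Nf2 0.048 and Stk4 0.076. With log2(TPM + 0.1) they were Wwtr1 0.31, Vgll4 0.043, Lats2 0.17 and Ccn2 0.14 in ShPkm1, and Wwtr1 0.22, Tead1 0.38, Tead3 0.0041, Ccn1 0.38, Ccn2 0.34, Nf2 0.049 and Stk4 0.081 in ShPkm2. By construction these scales lack the composition factor. In ShPkm1, leaving out a library turned Yap1 to -0.064 and Wwtr1 to 0.12 (without shScr replicate 1) and Tead1 to -0.031 (without ShPkm1 replicate 1). The other ends of their ranges were 0.11, -0.27 and 0.18, and the cause was not tested. Equal replicate numbers do not pair the libraries (correlation of deviations -0.026, 0.042 and 0.053). With the replicate number as a block, 7922, 8566 and 6682 genes were called against 7984, 8602 and 6703, and 6, 6 and 4 of the 10 genes, Yap1 in ShPkm2 losing its call (0.24, adjusted p = 0.0553). With 2 libraries a group, the intervals given show which sizes of change the data leave room for.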
